A study of Saccharomyces cerevisiae with 6 samples.

Results

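The autophagy genes examined here were the features whose gene name in the deposited tables is ATG followed by a number. There were 28 of them among the 7126 features of each table. All 28 had the status OK in every library and a mean of at least 1 FPKM (fragments mapped to a feature, scaled by its length and by the depth of the library), so none was lost to a filter. Polyadenylated RNA had been sequenced from 3 strains of budding yeast grown in rich glucose medium (YPD), with 2 libraries per strain, and all were labelled S288c and mating type a. The strain named Wt-M11, called wild type below, carries the source label Wtmonosome-XI. Its genotype label lists the alleles trp1-1, leu2-3, ade2-1, ura3, his3-11,15 and can1-100, the notations GAL and [phi+], and the cassettes HIS3 and KanMX6 in an intergenic region beside YKL006W. D8A and D8B bear the same label, which gives the markers his3, leu2, met15 and ura3 and lists deletions of TSA1 and GPX3 with KAN, TSA2 with LEU2, DOT5 with MET15, AHP1 with HIS3, PRX1 and GPX1 with URA3, GPX2 with HYG, and SRX1 with NAT. The label does not say how D8A differs from D8B, nor that libraries of a strain came from separate cultures, so the p-values below cover no more than library-to-library spread, which may be technical. The wild type and the null strains also differ in marker alleles, and differences between them cannot be told apart from those of the backgrounds. Thiol peroxidases are the enzymes that reduce peroxides through reactive cysteines.

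In autophagy a cup-shaped membrane encloses cytoplasm or organelles and closes into a double-membraned autophagosome, which fuses with the vacuole, where its content is degraded. The Atg1 kinase complex starts the process, a lipid kinase complex marks the membrane, vesicles bearing Atg9 and the lipid-transfer protein Atg2 feed it, and the ubiquitin-like proteins Atg8 and Atg12 are conjugated to a lipid and to Atg5. In rich medium yeast keeps bulk autophagy low, while the same machinery carries hydrolases to the vacuole in the cytoplasm-to-vacuole targeting (Cvt) pathway. Atg4, the cysteine protease that processes Atg8, is known in yeast to be controlled by thioredoxin, which ties the pathway to the redox state of the cell.

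Depth, estimated from the deposited intervals, was lowest in D8A replicate 1, at 4.02 M fragments, and highest in D8B replicate 1, at 14.1 M. Across the 6925 features tested the replicates correlated with r = 0.976 in wild type, 0.938 in D8A and 0.973 in D8B, where features are not independent replicates. D8A replicate 1 stood apart, and D8A replicate 2 correlated more with both D8B libraries (0.9645 and 0.9498) and both wild-type libraries (0.9477 and 0.9414) than with its own replicate. Of the 9 genes labelled as deleted, 8 were at 0 to 9.94 FPKM in the null libraries against 27.3 to 2029 in wild type. SRX1 went against its label, at 319 to 654 FPKM in the libraries labelled null against 52.8 and 76.8 in wild type, so each direction below rests on labels that 8 of the 9 genes match. The median level of chromosome XI features, less that of the other chromosomes, was 0.98 and 1.05 on the log2 scale in wild type and 1.036 to 1.152 in the null libraries, so chromosome XI stood above the other chromosomes in all 6 libraries, including those whose source label reads Wtmonosome-XI. The a-specific genes MFA1, MFA2, STE2 and BAR1 summed to 6884 to 10970 FPKM per library, and MF(ALPHA)1, MF(ALPHA)2 and STE3 of the other mating type to 35.5 to 55.5.

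The sequences upstream of ATG8, ATG5 and ATG15 are shown because ATG8 had the lowest, and ATG5 and ATG15 the highest, differences between the null strains and wild type in the comparison described further on. Each is the run of 300 bases before the annotated start codon in the R64 genome of RefSeq, where all 28 genes had the coordinates of the deposited tables. Capitals mark matches, on either strand, to 5 short motifs: GGCGGC (the core of the URS1 element of the repressor Ume6, known to hold ATG8 down in rich medium), AGGGG (the stress element of Msn2 and Msn4), TGACTC (the core of the Gcn4 site), GATAAG (bound by the nitrogen-responsive GATA factors) and TTACTAA (a site of the peroxide-responsive factor Yap1).
ATG8, chrII:80732-81031, minus strand: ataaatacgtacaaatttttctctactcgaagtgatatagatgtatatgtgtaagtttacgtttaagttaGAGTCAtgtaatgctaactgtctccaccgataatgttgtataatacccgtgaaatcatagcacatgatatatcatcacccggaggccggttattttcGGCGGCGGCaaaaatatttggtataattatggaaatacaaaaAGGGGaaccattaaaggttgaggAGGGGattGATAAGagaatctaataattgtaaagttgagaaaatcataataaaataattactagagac
ATG5, chrXVI:271010-271309, plus strand: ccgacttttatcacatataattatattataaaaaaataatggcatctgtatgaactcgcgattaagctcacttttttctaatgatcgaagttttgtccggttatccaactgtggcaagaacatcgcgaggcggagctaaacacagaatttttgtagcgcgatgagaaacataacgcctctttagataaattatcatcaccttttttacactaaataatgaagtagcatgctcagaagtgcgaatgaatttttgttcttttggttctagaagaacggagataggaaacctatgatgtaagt
ATG15, chrIII:236914-237213, plus strand: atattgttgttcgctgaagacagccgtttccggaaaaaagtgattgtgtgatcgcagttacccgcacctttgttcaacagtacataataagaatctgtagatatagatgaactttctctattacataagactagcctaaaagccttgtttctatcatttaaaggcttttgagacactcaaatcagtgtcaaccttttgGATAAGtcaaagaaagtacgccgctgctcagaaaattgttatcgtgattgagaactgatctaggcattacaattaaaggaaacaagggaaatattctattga

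The window of ATG8 held 4 of the 5 motifs, among them a pair of overlapping GGCGGC matches that begin 133 and 130 bases before the start codon and a pair of AGGGG matches. The window of ATG8 overlaps the feature YBL077W by 135 bp. ATG15 had 1 match to GATAAG, and ATG5 had none of these letters. Over the upstream windows of 6001 protein-coding genes, GGCGGC was present in 5.2%, AGGGG in 22.2%, TGACTC in 7.77%, GATAAG in 14.7% and TTACTAA in 7.82%. Among the 28 ATG genes the corresponding counts were 2 (ATG8 and ATG19), 9, 4, 10 and 1 (ATG18). In the same order these are 7.14%, 32.1%, 14.3%, 35.7% and 3.57% of the members. The 10 genes with GATAAG were ATG4, ATG8, ATG9, ATG14, ATG15, ATG18, ATG19, ATG29, ATG32 and ATG33.

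The ATG genes were expressed at low to moderate levels. Their median over the 6 libraries was 17.9 FPKM against 41.0 for all features tested, and 23 of the 28 lay below that overall median. ATG27, a membrane protein that travels with Atg9, had the highest mean (112 FPKM), followed by ATG8 (93.2) and ATG33 (56.4), a mitochondrial protein of mitophagy. ATG9, the membrane protein carried by the vesicles that seed the autophagosome, had the lowest mean (5.81), next to the kinase ATG1 (6.32), the lipid kinase subunit ATG14 (6.55) and the lipid transporter ATG2 (6.99). The FPKM of some short features exceed the midpoints of their own deposited intervals, by a median ratio of 2.15 for ATG8 (354 bp) and 1.44 for ATG12 (561 bp) and ATG10 (504 bp), against 1.00 for ATG16 (453 bp) and 1.01 for ATG1 (2694 bp). On the midpoint scale ATG27 averaged 87.8 and ATG8 44.0, and they kept the first and second place. The order of neighbouring genes does not exceed the spread in most cases, as with ATG5, ATG19 and ATG12, whose libraries overlap.

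**Figure D1:**
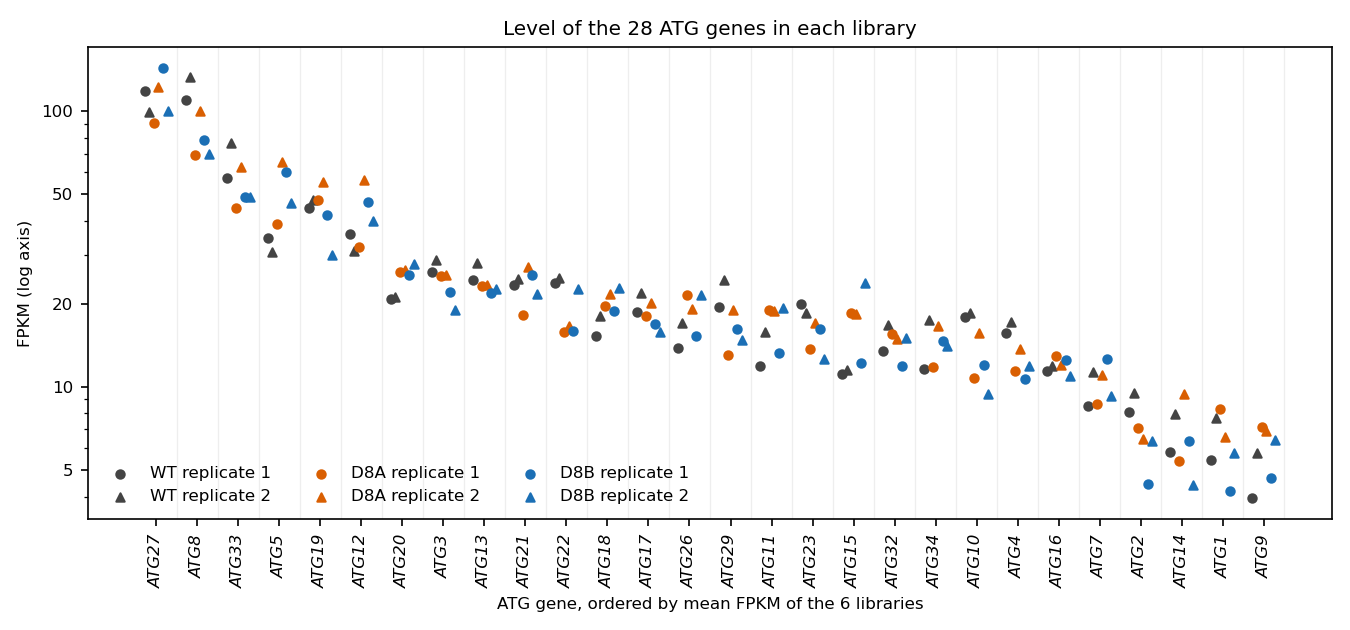
FPKM of each of the 28 ATG genes (x axis, ordered by the mean of the 6 libraries) on a log axis. Grey, orange and blue points are wild type, D8A and D8B, circles are replicate 1 and triangles replicate 2. All 4 null libraries lie below both wild-type libraries for 9 genes (32.1%, against 16.3% of all features), ATG8, ATG10, ATG4 and ATG22 among them. They lie above for 4 genes (14.3%, against 15.2%), which are ATG5, ATG15, ATG20 and ATG18.

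The first comparison set the strains labelled null for the thiol peroxidases against wild type. None of the 28 genes passed the test, which was limma on log2(FPKM + 1) with Benjamini-Hochberg adjustment over all features tested and a threshold of 0.05. For the mean of D8A and D8B, 0 of 28 passed (smallest adjusted p = 0.151, ATG8), where 6.45% of all features did. At an unadjusted p under 0.05 there were 2 higher and 4 lower genes, which is 21.4% of the members beside 21.1% of all features (8.87% higher and 12.3% lower), so the share is near the background. In bulk cultures, fewer cells with a transcript and less of it per cell cannot be told apart. D8A alone against wild type gave 0 of 28 in limma where 5.05% of all features passed, and 0 higher and 1 lower at an unadjusted p under 0.05, where 18.0% of all features passed that mark (6.77% higher and 11.2% lower). D8B alone gave 0 of 28 where 4.90% passed, and 1 higher and 4 lower at an unadjusted p under 0.05, where 19.0% of all features passed it (8.01% higher and 11.0% lower). The differences of single genes ranged from -0.61 to 0.64 on the log2 scale for the mean of both strains, with a median of -0.08 beside 0.01 for all features. Leaving out wild-type replicate 1 moved the ATG median to -0.25, and leaving out wild-type replicate 2 turned it to 0.02. It was -0.02 without D8A replicate 1, -0.14 without D8A replicate 2, -0.10 without D8B replicate 1 and -0.01 without D8B replicate 2. The median of all features moved with the D8A libraries too, to 0.09 without D8A replicate 1 and -0.06 without D8A replicate 2. It stayed between -0.004 and 0.03 when a wild-type or D8B library was left out. For each strain alone, the ATG median was -0.02 in D8A, beside -0.01 for all features, and -0.19 in D8B, beside 0.06. In fits without 1 library it ranged from -0.16 to 0.14 in D8A and from -0.31 to -0.06 in D8B. The typical size of a difference for the mean of both strains, its median absolute value, was 0.31 for the ATG genes and 0.26 for all features.

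A gene that does not pass is not shown to be equal between strains. For the mean of both null strains, the 95% interval of the difference lay within 2-fold in either direction for 23 of the 28 genes, and the median half-width was 0.48 on the log2 scale. The intervals of ATG8, ATG10, ATG2, ATG5 and ATG15 reached 2-fold. All 4 null libraries lay above both wild-type libraries for 4 genes, which is 14.3% of the members against a background of 15.2%. They lay below for 9 genes, ATG2, ATG3, ATG4, ATG8, ATG10, ATG13, ATG22, ATG23 and ATG29, which is 32.1% against 16.3%. Taken alone, D8A lay above wild type without overlap for 8 genes (background 25.3%) and below for 9 (26.1%), and D8B above for 5 (30.0%) and below for 12 (25.9%), or 42.9% of the members. Without D8A replicate 1, the shallowest library, the differences for the mean of both strains were -0.48 for ATG8, -0.46 for ATG10, 0.82 for ATG5 and 0.60 for ATG15. With all libraries they were -0.61, -0.58, 0.64 and 0.60.

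**Figure D2:**
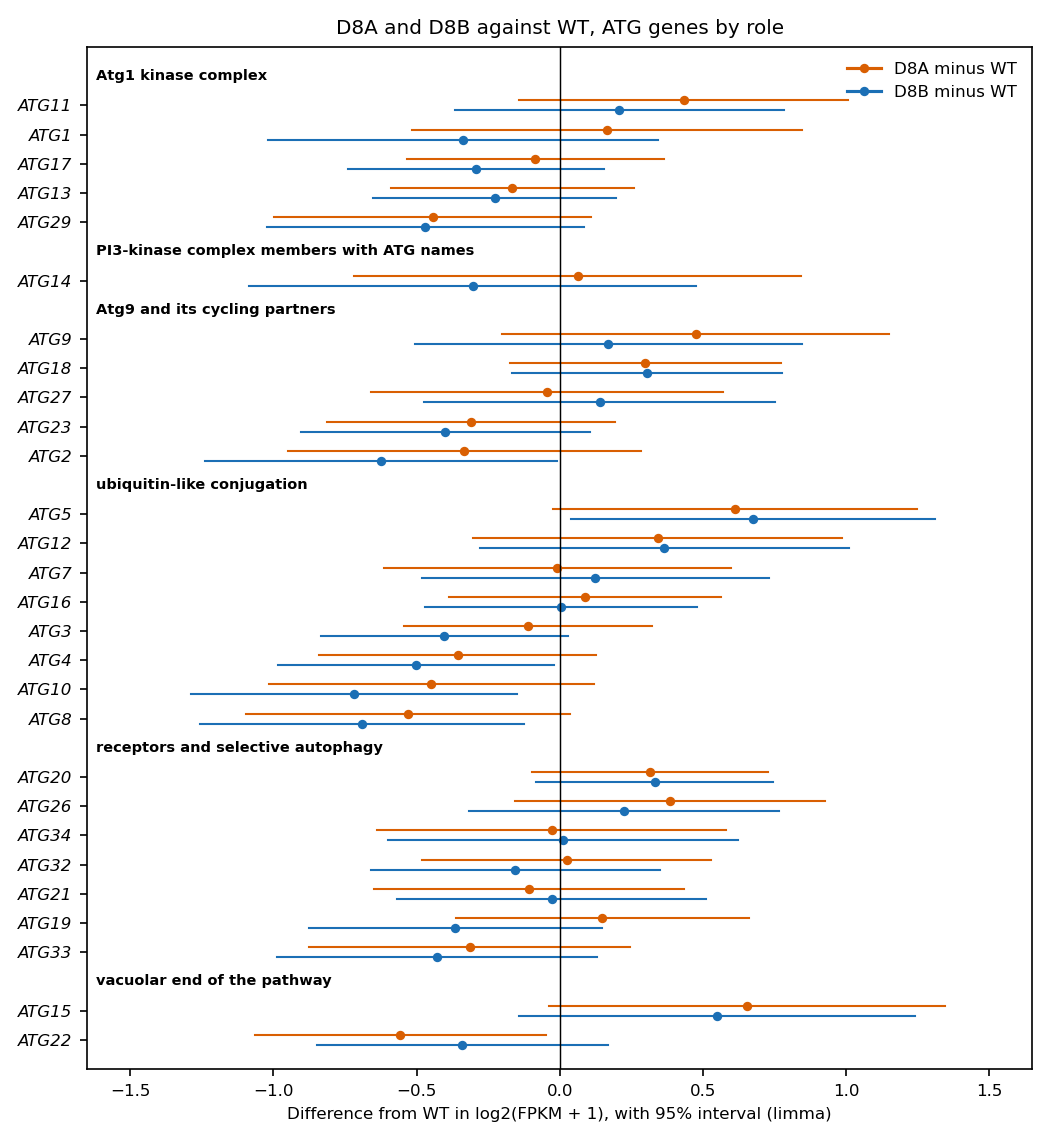
Difference of D8A (orange) and of D8B (blue) from wild type in log2(FPKM + 1) for the 28 ATG genes by role, with 95% intervals from limma. The intervals of ATG5, ATG8, ATG10, ATG4 and ATG2 in D8B and of ATG22 in D8A exclude 0 before adjustment, and 0 of 28 genes pass after it.

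The ubiquitin-like conjugation system, with 8 genes, held both the lowest and the highest of these differences. ATG8, which is joined to phosphatidylethanolamine and coats the growing membrane, measured 109.5 and 132 FPKM in the wild-type pair, 69.3 and 99.6 for D8A, and 78.8 and 69.9 for D8B. The 4 null libraries were all below the wild-type pair. The group means were 121 ± 16.2 (SD, n = 2) and 79.4 ± 14.2 (SD, n = 4), a difference of -0.61 ± 0.21 (SE) on the log2 scale with a 95% interval of -1.10 to -0.12 (limma adjusted p = 0.151). In D8B against wild type the difference was -0.69 (limma adjusted p = 0.176). ATG8 passed for the mean of both strains (limma adjusted p = 0.0292) and in D8B (0.037) once features under 300 bp were left out of the fit. In that fit 948 of all features passed for the mean and 817 in D8B, against 447 and 339 in the main fit. Without D8A replicate 2 the difference of ATG8 was -0.74.

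ATG10, the E2-like enzyme that attaches Atg12 to Atg5, measured 17.8 and 18.4 FPKM in the wild-type pair, 10.8 and 15.7 for D8A, and 12.01 and 9.40 for D8B. The groups did not overlap, and the difference was -0.58 ± 0.21 (SE; limma adjusted p = 0.170), or -0.72 in D8B alone (limma adjusted p = 0.163, and 0.0456 once features under 300 bp were left out of the fit). ATG10 was among the thinly covered genes, with about 18.5 to 64.3 fragments per library. ATG5, the acceptor of Atg12, went the other way, at 34.5 and 30.9 FPKM in the wild-type pair, 39.04 and 65.04 for D8A, and 59.96 and 46.4 for D8B. Every null library was above both wild-type libraries, with D8A replicate 1 nearest to them. The difference of ATG5 was 0.64 ± 0.24 (SE), with an interval of 0.09 to 1.19 (limma adjusted p = 0.174 for both strains together, 0.296 in D8A and 0.233 in D8B). It passed for the mean of both strains (limma adjusted p = 0.0160) and in D8B (0.0377) once features under 300 bp were left out of the fit.

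ATG12, the second ubiquitin-like protein, measured 35.8 and 31.0 FPKM in the wild-type pair, 32.02 and 56.3 for D8A, and 46.7 and 40.02 for D8B. D8A replicate 1 fell among the wild-type values and the difference was 0.35 (limma adjusted p = 0.455). ATG4 measured 15.6 and 17.1 in wild type and 10.6 to 13.8 in the null libraries, below the wild type in 4 of 4, with a difference of -0.43 (limma adjusted p = 0.226). ATG3, the E2-like enzyme of Atg8, measured 26.1 and 28.7 in the wild-type pair, 25.2 and 25.4 for D8A, and 22.1 and 18.95 for D8B, a difference of -0.26 (limma adjusted p = 0.416). ATG7, the E1-like enzyme that serves both conjugation reactions, overlapped between all strains at 8.54 to 12.6 FPKM, with a difference of 0.06. ATG16, which binds the Atg12-Atg5 conjugate, stayed between 10.95 and 12.97 FPKM in all libraries, but 316 of its 453 bp overlap the feature YMR158W-B. Since it is not stated whether counting used the strand, reads of overlapping features cannot be told apart.

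The Atg1 kinase complex was represented by 5 genes, and 0 passed in any comparison. ATG29, a subunit of the Atg17 scaffold complex, measured 19.5 and 24.4 FPKM in the wild-type pair, 13.05 and 18.98 for D8A, and 16.1 and 14.8 for D8B, all null libraries below both of wild type (-0.46, limma adjusted p = 0.259); it shares 24 bp with SET6. ATG13, the regulatory subunit whose phosphorylation by TOR and PKA restrains the kinase, lay at 24.4 and 28.2 in wild type and within 21.9 to 23.4 in the null libraries. That difference was small (-0.20 ± 0.16, SE; limma adjusted p = 0.529). ATG17, the scaffold, measured 18.7 and 21.8 in wild type and 15.8 to 20.1 in the null libraries. ATG11, the scaffold of selective autophagy, leaned upward, at 11.9 and 15.9 in the wild-type pair, 19.01 and 18.8 for D8A, and 13.2 and 19.3 for D8B (0.32, limma adjusted p = 0.445). ATG1 itself measured 5.44 and 7.70 in the wild-type pair, 8.28 and 6.58 for D8A, and 4.17 and 5.78 for D8B. Its difference from wild type was 0.16 in D8A and -0.34 in D8B, and neither passed in limma (adjusted p = 0.791 and 0.587).

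Among Atg9 and its partners, 0 of 5 genes passed. ATG2 measured 8.12 and 9.46 FPKM in the wild-type pair, 7.06 and 6.45 for D8A, and 4.45 and 6.37 for D8B, with 4 of 4 null libraries below the wild type (-0.48 ± 0.23, SE; limma adjusted p = 0.287). ATG18, the phosphoinositide-binding partner of Atg2, was 15.2 and 18.1 in wild type and 18.8 to 22.9 in the null libraries, above in 4 of 4 (0.30, limma adjusted p = 0.379). ATG23, a peripheral protein of the Atg9 vesicles, was 19.9 and 18.5 in wild type and 12.7 to 17.04 in the null libraries (-0.35, limma adjusted p = 0.334). ATG9 measured 3.96 and 5.74 FPKM in the wild-type pair, 7.13 and 6.94 for D8A, and 4.68 and 6.43 for D8B. Both D8A libraries lay above the wild type (0.475, limma adjusted p = 0.429), and D8B overlapped with it. ATG27 ranged from 90.1 to 143 and overlapped between wild type and the null libraries. ATG14, which directs the phosphatidylinositol 3-kinase complex to autophagy, spanned 4.41 to 9.41 FPKM and differed by -0.12 with the widest interval of the family for the mean of both strains (-0.80 to 0.56).

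The 7 genes of receptors and selective autophagy also had 0 passes. ATG20, a sorting nexin of the Cvt pathway, had tight replicates, at 20.8 and 21.1 FPKM in the wild-type pair, 26.2 and 26.4 for D8A, and 25.4 and 27.9 for D8B. All null libraries were above the wild type, and the difference of 0.32 ± 0.15 (SE) had an interval of -0.03 to 0.68 (limma adjusted p = 0.284). ATG32, the mitophagy receptor of the outer mitochondrial membrane, measured 13.5 and 16.7 in the wild-type pair, 15.6 and 14.9 for D8A, and 11.9 and 14.99 for D8B, a difference of -0.07 with an interval of -0.50 to 0.37 (limma adjusted p = 0.867). ATG33 measured 57.1 and 76.3 in wild type and 44.6 to 62.7 in the null libraries (-0.37, limma adjusted p = 0.359). ATG21, which like Atg18 binds phosphoinositides, and ATG34, a receptor for alpha-mannosidase, overlapped between strains at 18.1 to 27.1 and 11.6 to 17.5 FPKM, and 141 bp of ATG34 overlap YOL083C-A. ATG26, a sterol glucosyltransferase not needed for autophagy in this yeast, measured 13.8 and 17.1 in wild type and 15.2 to 21.6 in the null libraries.

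ATG19, the receptor of the Cvt pathway, lies 1774 bp from ATG34 on chromosome XV. Their coding regions matched at 61.8% of aligned bases with a longest identical run of 12 bases, and ATG18 and ATG21 at 62.4% with a run of 11. ATG19 measured 44.6 and 47.4 FPKM in the wild-type pair, 47.4 and 55.1 for D8A, and 41.9 and 30.1 for D8B, so both D8B libraries lay below the wild type, and D8A overlapped with it.

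Neither gene of the vacuolar end passed. ATG15, the lipase that breaks down the inner vesicle in the vacuole, measured 11.2 and 11.5 FPKM in the wild-type pair, 18.5 and 18.4 for D8A, and 12.2 and 23.8 for D8B. The D8B replicates were far apart, with replicate 1 close to wild type. The difference was 0.60 ± 0.26 (SE) for the mean of both strains (limma adjusted p = 0.235, and 0.0456 once features under 300 bp were left out of the fit), and 0.37 (adjusted p = 0.443) without D8B replicate 2. ATG22, a vacuolar exporter of amino acids, measured 23.8 and 24.9 in the wild-type pair, 15.8 and 16.6 for D8A, and 15.9 and 22.7 for D8B, below the wild type in 4 of 4 null libraries (-0.45, limma adjusted p = 0.230; -0.56 in D8A, adjusted p = 0.236).

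The comparison of D8B with D8A, which share 1 genotype label, asked whether the null strains differ from each other. It gave 0 of 28 passes in limma, where 0.332% of all features passed (0.217% higher and 0.116% lower). At an unadjusted p under 0.05 there were 0 higher genes (4.74% of all features) and 1 lower (4.45%, 9.18% in all). That gene was ATG19, 51.2 ± 5.50 FPKM in D8A and 35.98 ± 8.36 in D8B (SD, n = 2 each), a difference of -0.51 ± 0.22 (SE; limma adjusted p = 0.541) that was -0.28 without D8B replicate 2. ATG1 came next, 7.43 ± 1.21 in D8A and 4.97 ± 1.14 in D8B (-0.50 ± 0.29, SE; limma adjusted p = 0.654), and its difference was -0.31 without D8B replicate 1. Both D8B libraries lay below both D8A libraries for 7 genes (ATG1, ATG2, ATG3, ATG9, ATG13, ATG17 and ATG19), which is 25% of the members against 15.1% of all features, and above them for 0, against 19.7%. The median difference was -0.11 for the ATG genes and 0.07 for all features, but -0.24 and -0.07 without D8A replicate 1 and -0.02 and 0.19 without D8A replicate 2.

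Some autophagy genes carry other names in the deposited tables. RefSeq gives an ATG symbol or synonym to 11 features outside the 28, and 2 of them fell for the mean of both null strains, while 0 rose, where 4.91% of all features were lower and 1.55% higher. ICY2 (YPL250C, ATG41 in RefSeq), whose product acts with Atg9, measured 182 and 215 FPKM in the wild-type pair, 75.6 and 60.5 for D8A, and 90.4 and 95.3 for D8B. It fell by 1.31 ± 0.19 (SE) on the log2 scale for the mean of both strains (limma adjusted p = 0.00645), and passed in D8A (-1.53, adjusted p = 0.00748) and in D8B (-1.08, adjusted p = 0.0326). YBR139W (ATG42 in RefSeq), a vacuolar carboxypeptidase, measured 63.2 and 75.4 in the wild-type pair, 28.7 and 37.5 for D8A, and 45.3 and 37.1 for D8B. It fell by 0.89 ± 0.19 (SE; limma adjusted p = 0.0348), passing in D8A (adjusted p = 0.0392) and not in D8B (adjusted p = 0.117), and D8B against D8A did not pass either (adjusted p = 0.698). Without wild-type replicate 2 neither gene passed in limma for the mean of both strains (adjusted p = 0.135 for ICY2 and 0.388 for YBR139W), and without replicate 1 ICY2 was at 0.0501 and YBR139W at 0.146. The YBR139W call was also lost without D8A replicate 1, D8B replicate 1 or D8B replicate 2 (adjusted p = 0.0552, 0.0509 and 0.0984), and the ICY2 call in D8B without any 1 of the wild-type or D8B libraries (adjusted p = 0.136 to 0.331) and with the replicate block (0.0922). In D8A, YBR139W was lost when any 1 library other than D8A replicate 2 was left out (adjusted p = 0.0529 to 0.340).

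The other 9 did not pass. YJL185C (ATG36), the receptor of peroxisome autophagy, measured 11.8 and 9.91 FPKM in wild type and 16.9 to 25.4 in the null libraries (0.78, limma adjusted p = 0.0736). YLR312C (ATG39), a receptor for the nuclear envelope, measured 7.92 and 10.6 in the wild-type pair, 12.5 and 10.9 for D8A, and 4.84 and 6.34 for D8B, a difference of -0.95 between D8B and D8A (limma adjusted p = 0.268). YIL024C (ATG45) measured 30.8 and 26.99 in wild type and 15.7 to 23.8 in the null libraries (-0.58, limma adjusted p = 0.0841). The subunits CIS1 (ATG31) of the Atg17 complex and VPS30 (ATG6) and YLR211C (ATG38) of the lipid kinase differed by -0.15, 0.03 and -0.25.

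**Figure D3:**
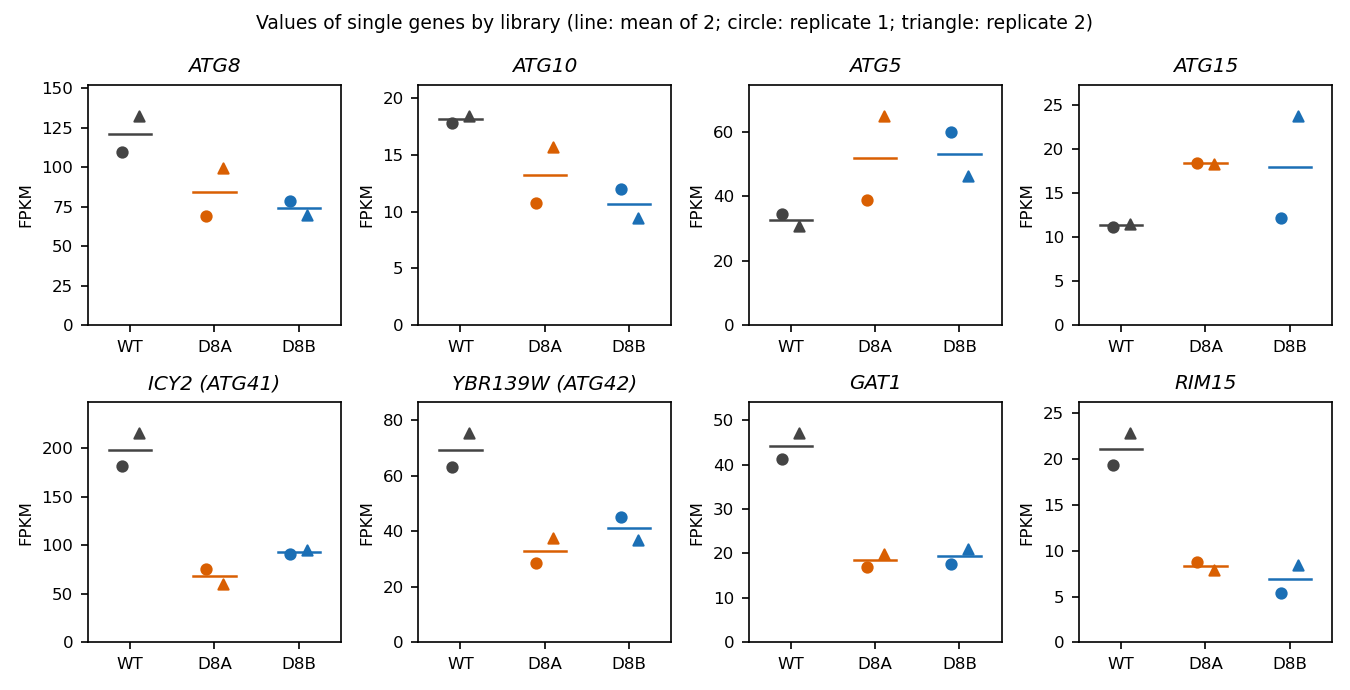
FPKM by library for 4 ATG genes (top) and 4 other genes of the pathway (bottom), with y axes that start at 0. Circles are replicate 1, triangles replicate 2 and lines the mean of the 2 libraries. The 4 null libraries of ICY2, YBR139W, GAT1 and RIM15 lie well below the wild type, and the upper genes are separated by less.

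Of 69 other genes of the pathway, among them signalling, vacuole and regulator genes, 1 rose and 4 fell for the mean of both null strains, where 1.55% of all features passed as higher and 4.91% as lower. In D8A 1 rose and 4 fell, against backgrounds of 1.23% and 3.83%, and in D8B 0 rose and 3 fell, against 1.21% and 3.68%. Between D8B and D8A 0 passed in limma, and 2 were lower at an unadjusted p under 0.05, where 4.45% of all features were. The median difference for the mean of both strains was 0.03. Partners of the ATG proteins (7 genes), signalling by TOR, PKA and Snf1 (17), Cvt cargo (3) and vacuole fusion (13) had 0 passes in limma, with 0, 0, 0 and 5 at an unadjusted p under 0.05, where 21.1% of all features passed that mark.

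Among 12 regulators of ATG transcription, GAT1 and RIM15 fell and 0 rose, with a list median of -0.12. GAT1, a GATA activator of nitrogen-repressed genes, measured 41.4 and 47.1 FPKM in the wild-type pair, 17.01 and 19.9 for D8A, and 17.7 and 21.1 for D8B (-1.18 ± 0.17, SE; limma adjusted p = 0.00653). The feature YFL021C-A covers 650 of the 1533 bp of GAT1. RIM15, the kinase that acts below TOR and PKA when nutrients run low, measured 19.3 and 22.8 in the wild-type pair, 8.75 and 7.84 for D8A, and 5.38 and 8.43 for D8B (-1.37 ± 0.22, SE; limma adjusted p = 0.0113). Both genes passed in each strain as well, with limma adjusted p = 0.0137 and 0.0181 for GAT1 and 0.0370 and 0.0180 for RIM15 in D8A and D8B. The RIM15 call in D8A was lost without the filter, with a pseudocount of 0.1, with the replicate block, and without any 1 of the wild-type or D8A libraries (limma adjusted p = 0.0503 to 0.272), and that in D8B without the filter, either wild-type library or D8B replicate 1 (0.0547 to 0.161). The GAT1 call was lost in D8A without either wild-type library or D8A replicate 1 (limma adjusted p = 0.0580 to 0.173), and in D8B without the filter or any 1 of the wild-type or D8B libraries (0.0567 to 0.204). UME6, the repressor of ATG8, measured 10.6 and 11.9 in wild type and 10.1 to 14.02 in the null libraries, and RPH1, a demethylase that represses ATG genes, 16.2 and 20.01 in wild type and 20.03 to 30.4 in the null libraries, and neither passed (limma adjusted p = 0.904 and 0.322).

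Among 7 vacuolar hydrolases CPS1, a carboxypeptidase, fell from 94.2 and 122 FPKM in wild type to 44.1 to 56.8 in the null libraries (-1.05, limma adjusted p = 0.0212). PEP4, the proteinase that activates the others, measured 374 and 451 in wild type and 336 to 455 in the null libraries (-0.06, limma adjusted p = 0.881). Among 10 regulators of mitophagy and pexophagy, SLT2 fell and UTH1 rose. SLT2, a MAP kinase of cell wall integrity that takes part in both, measured 166 and 186 in the wild-type pair, 66.9 and 90.2 for D8A, and 70.5 and 68.1 for D8B (-1.25, limma adjusted p = 0.00839). UTH1, on chromosome XI and linked to mitophagy, measured 337 and 433 in the wild-type pair, 1209 and 1094 for D8A, and 692 and 1190 for D8B (1.42, limma adjusted p = 0.0226). None of the 28 ATG genes lies on chromosome XI.

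These 5 calls for the mean of both strains were lost when either wild-type library was left out, in fits that keep 1 wild-type library. SLT2 passed in D8A and in D8B alone (limma adjusted p = 0.0277 and 0.0167). CPS1 and UTH1 passed in D8A (limma adjusted p = 0.0370 and 0.0319) and not in D8B (0.0507 and 0.0713). The calls of the same genes in a single strain, where there was one, were likewise lost. Those of CPS1, UTH1 and SLT2 in D8A were also lost in some other alternative fits. All 5 differences for the mean of both strains kept their direction. Without wild-type replicate 2 the difference was -1.09 for GAT1, -1.26 for RIM15, -1.17 for SLT2, -0.86 for CPS1 and 1.60 for UTH1. In the same order it was -1.28, -1.49, -1.33, -1.23 and 1.235 without wild-type replicate 1. CPS1 was also lost without D8B replicate 1 (adjusted p = 0.0528) and UTH1 without D8A replicate 1 (0.0546).

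**Figure D4:**
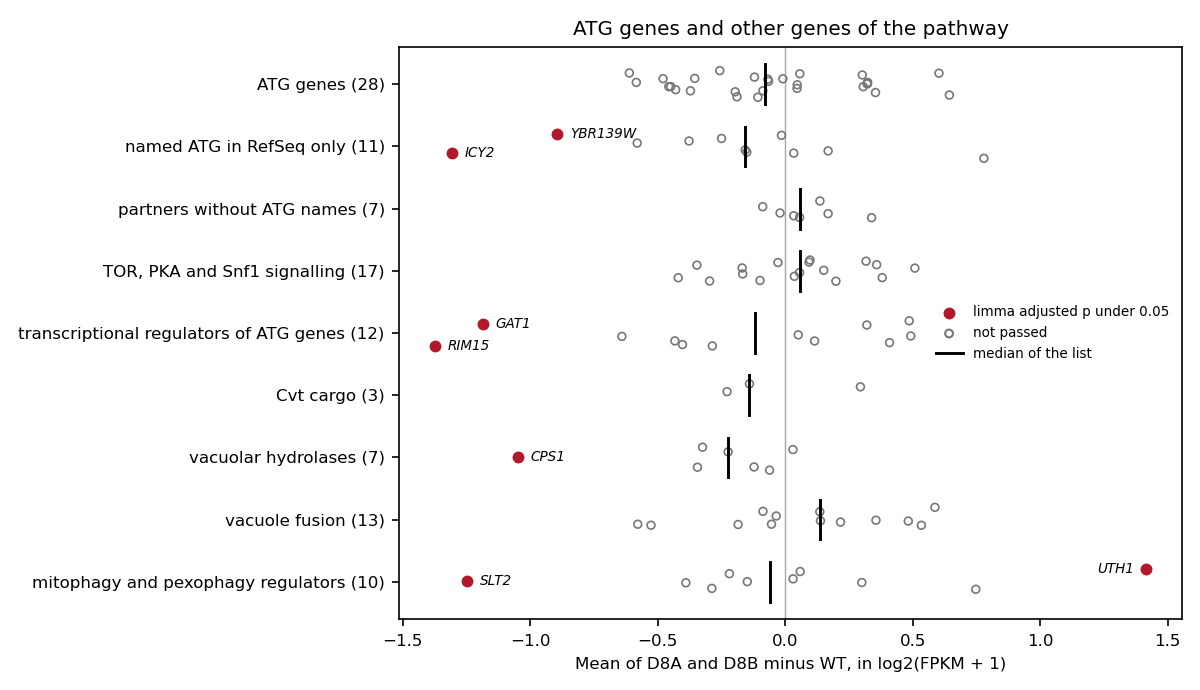
Difference between the mean of D8A and D8B and wild type, in log2(FPKM + 1), for the 28 ATG genes, the 11 features named ATG in RefSeq only and 7 lists of other pathway genes (number of genes in brackets). Each circle is a gene, filled red where limma's adjusted p is under 0.05, and the vertical bar is the median of the list. The 28 ATG genes span -0.61 to 0.64 with 0 filled circles. VPS30 and SNX4 appear in 2 rows.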

How the data were processed

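Each of the 6 libraries had 1 table of FPKM values and interval bounds, deposited by the authors and used as given. Per the submitters' processing notes, which give no role or order, Bowtie2 2.1.0, TopHat2 2.0.9 and Cufflinks 2.1.1 were used with R64; no source used here gives strand use in counting. Features with the status OK in all libraries (7051) and a mean of at least 1 FPKM (6925) were fitted as log2(FPKM + 1), which understates changes of weakly expressed genes. The fit was limma 3.58.1 in R 4.3.3, with 1 mean per strain, variances that follow the mean, 3 residual and 4.7 prior degrees of freedom, and two-sided Benjamini-Hochberg adjustment over all features. Its check on simulated data used only changes larger than those of the ATG genes, with spreads shuffled among features. That check therefore does not cover differences of the size seen in the ATG genes. Depth was estimated from the deposited intervals, whose low bounds are whole multiples of 1 step per library (tolerance 0.02, 90.0% to 94.2% of low bounds). No count model was used.

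The ATG genes and the lists were chosen with earlier results of these data known. Full statistics were planned for ATG genes that passed, otherwise for the 2 nearest to the threshold per comparison, and for at most 4 passing genes per list; ATG genes named beyond these, the motifs, and the 11 features with ATG names in RefSeq only were chosen after values were seen. Alternatives were another pseudocount, no filter, quantile normalization, longer features only, interval midpoints, a replicate block and leaving out each library. The upstream sequence of 1 further gene is not reported here.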

Additional observations from a re-analysis of the deposited data

How the results depend on the processing

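The count of ATG genes passing in limma stayed at 0 in every comparison with a pseudocount of 0.1, without the filter, with quantile normalization, with interval midpoints and with the replicate block. Once features under 300 bp were left out, 3 passed for the mean of both null strains (ATG5 and ATG15 higher, ATG8 lower) and 3 in D8B against wild type (ATG5 higher, ATG8 and ATG10 lower), and 0 in the other comparisons. Calls over all features rose in that fit too, from 447 to 948 for the mean and from 339 to 817 in D8B, so the added passes are not particular to the ATG genes. Leaving out single libraries gave 0 to 1 for the mean of both strains and 0 to 0 elsewhere. For the mean of both strains, the sign of ATG1, ATG7, ATG14, ATG19, ATG21, ATG27, ATG32 and ATG34, whose differences lay between -0.12 and 0.06, turned in at least 1 of these fits, and ATG1 in D8A turned from 0.16 to -0.05 without wild-type replicate 1.

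Over all features the mean of both strains gave 447 calls, D8A 350, D8B 339 and D8B against D8A 23. In that order, the counts were 270, 184, 175 and 11 without the filter, and 948, 801, 817 and 197 with longer features only. Interval midpoints gave 671 for the mean, 594 for D8B and 82 for D8B against D8A, and quantile normalization 685 for the mean. Leaving out libraries gave 114 to 671, 90 to 473, 98 to 477 and 10 to 104. For the mean of both strains the libraries that moved the count by over 1.5 times were wild-type replicate 1 (201 calls without it), wild-type replicate 2 (114) and D8A replicate 2 (671). The limma calls of CPS1 and UTH1 were lost without the filter (adjusted p = 0.0574 and 0.0640) and with quantile normalization (0.0563 and 0.0504), that of YBR139W without the filter (0.0815), and that of ICY2 in D8B in both (0.0586 and 0.0667). The causes were not tested.

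The libraries share only a replicate number: deviations of same-numbered libraries correlated with r = -0.15 (wild type and D8A), 0.33 (wild type and D8B) and -0.25 (D8A and D8B). The replicate block gave 311, 187, 213 and 9 calls, and under it CPS1, UTH1 and YBR139W for the mean of both strains were at limma adjusted p = 0.0622, 0.0622 and 0.0778. With 2 libraries per strain and as few as 18.5 fragments for ATG10, small differences were not detectable.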

Other observations

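The ratio of ATG8 to ATG5 within a library does not depend on how libraries are scaled. It was chosen after the values were seen and is given without a test. In FPKM it was 3.17 and 4.29 in the wild-type pair, 1.77 and 1.53 for D8A, and 1.31 and 1.51 for D8B, and on the interval midpoints 1.78 and 2.41, 1.12 and 0.87, and 0.75 and 0.87. The ratio of ATG15 to ATG22, chosen in the same way, was 0.47 and 0.46 in the wild-type pair, 1.17 and 1.11 for D8A, and 0.77 and 1.05 for D8B. Each ratio sets a gene that was lower in every null library against a gene that was higher in every one. The separation from the wild-type pair was therefore fixed by that choice and adds nothing to the values of the single genes. Replicates of the ATG genes differed by a median of 0.21 on the log2 scale in wild type, 0.23 in D8A and 0.31 in D8B, and the widest gaps were those of ATG34 (0.55), ATG12 (0.80) and ATG15 (0.91).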
